A study of Homo sapiens with 12 samples.

Results

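The gene group described here is polyamine metabolism with SAT1 at its centre: SAT1, ODC1, AZIN1, OAZ1, OAZ2, AMD1, SRM, SMS, PAOX and SMOX, 10 genes out of 63241 in the deposited count table, matched by gene name. SAT1 was selected on its measured counts, for its rise in T98G cells labelled PEPD-OE, so its T98G values are given without a test. The other 9 genes were listed for their place in the pathway, with earlier results of these data known. The libraries came from T98G and U251, established human glioblastoma cell lines, and fell into 4 groups of 3: T98G PEPD-OE, T98G NC, U251 PEPD-OE and U251 NC. PEPD-OE cells over-express PEPD, which encodes prolidase, an enzyme that cleaves dipeptides with a carboxyl-terminal proline. The labels do not expand NC, name no vector or promoter, and leave open whether replicates came from different cultures or clones, so the p-values may measure technical spread only.

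Polyamines are small cations, putrescine, spermidine and spermine, that bind nucleic acids and are needed for growth. ODC1 makes putrescine from ornithine, AMD1 supplies the aminopropyl donor from S-adenosylmethionine, and SRM and SMS add that group to give spermidine and spermine. SAT1 acetylates spermidine and spermine, which marks them for export or for oxidation by PAOX, while SMOX oxidises spermine directly. Antizymes (OAZ1, OAZ2) bind ODC1 protein and send it to the proteasome, and the antizyme inhibitor AZIN1 binds antizyme in its place. Much of this control acts on translation and protein turnover, which polyadenylated RNA counts do not measure.

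Library totals ranged from 464056 (T98G NC replicate 1) to 924204 counts, so that 3 counts in a library equalled 3.20 to 6.33 CPM (counts per 1e6 counts under the tested genes, scaled by TMM factors). PEPD itself had 118, 100 and 114 counts in T98G PEPD-OE against 9, 2 and 9 in T98G NC, and 113, 140 and 175 in U251 PEPD-OE against 11, 5 and 7 in U251 NC. Of 8 glioma and astroglial markers, OLIG2 had 0 counts in all 12 libraries, S100B at most 2, and SOX2 at most 1 and NES at most 9 in T98G, while VIM and CD44 were abundant in both lines. The summed level of that list was 1200 to 1390 CPM in T98G PEPD-OE against 1620 to 1730 CPM in T98G NC. In U251 it was 3220 to 3770 CPM in PEPD-OE against 4640 to 4720 CPM in NC. Not every marker followed the sum. EGFR was higher in U251 PEPD-OE (51.2 to 54.9 CPM) than in U251 NC (25.6 to 32.2 CPM), but lower in T98G PEPD-OE. GFAP averaged higher in T98G PEPD-OE, with overlapping libraries, and was lower in U251 PEPD-OE. The 3 fibroblast and pericyte markers summed to 69.5 to 89.8 CPM in T98G PEPD-OE against 52.7 to 59.1 CPM in T98G NC, mostly PDGFRB, with DCN at 0 in T98G, and to 3.01 to 5.34 CPM in U251 PEPD-OE against 7.73 to 16.8 CPM in U251 NC. The 5 macrophage and microglia markers held 37 counts in T98G PEPD-OE replicate 2 and 46 in T98G NC replicate 2, most of them PTPRC, against 0 to 8 in each of the other 10 libraries. Of the 3 endothelial markers, PECAM1 had 10 and 8 counts in those same libraries and VWF had 0 everywhere, and the 3 epithelial markers never passed 4 counts together. The part of these markers in the results below was not tested, and the values without both T98G libraries numbered 2 are given for SAT1, for calls they end and for SRM. In bulk RNA, fewer cells with a transcript and less of it per cell cannot be told apart.

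Genes with an exon on the strand opposite another gene's exon took 62.2% to 70.1% of the counts of a library. BEST1 held 486557 counts over the 12 libraries while FTH1, an abundant ferritin transcript on its opposite strand, held 10068. The strand setting of the authors' counting is not given in the sources used here. Had reads been assigned to the strand opposite their transcript, the counts under genes free of such overlap would be a remainder and not a plain level, which was not tested here. SAT1, ODC1, AMD1, SRM, SMS, PAOX and SMOX have no opposite exon in GENCODE release 29. AZIN1 (opposite AZIN1-AS1), OAZ1 (opposite JSRP1) and OAZ2 (opposite AC100830.3) have one. If strand was ignored or reversed in counting, their values cannot be told apart from those of the partner, which was not tested.

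SAT1 (ENSG00000130066, GRCh38 chrX:23783173-23786226, plus strand) stood far apart in a single group. Its counts were 112, 133 and 137 in T98G PEPD-OE, and 8, 21 and 4 in T98G NC. In U251 they were 7, 19 and 12 in PEPD-OE against 19, 20 and 14 in NC. On the CPM scale SAT1 averaged 189 ± 21.4 in T98G PEPD-OE, 16.4 ± 11.1 in T98G NC, 15.3 ± 6.45 in U251 PEPD-OE and 22.2 ± 3.96 in U251 NC (SD, n = 3 each). The lowest T98G PEPD-OE library was 6.07-fold above the highest T98G NC library, and the fitted log2 fold change was 3.53, given as a description. It was 4.28 without T98G NC replicate 2, 3.02 without T98G NC replicate 3 and 4.22 without both T98G libraries numbered 2. The order of the groups was T98G PEPD-OE, U251 NC, T98G NC and U251 PEPD-OE, and the last 3 overlapped in their library values. In U251, a contrast that had no part in choosing the gene, SAT1 was not called by edgeR's quasi-likelihood test (log2 fold change -0.51, SE 0.33, adjusted p = 0.405), with 1 of 3 PEPD-OE libraries inside the NC range. The change in T98G minus that in U251 was 4.04 on the log2 scale, again without a test because the T98G values chose the gene. That difference was 4.79 without T98G NC replicate 2, 3.52 without T98G NC replicate 3 and 4.72 without both T98G libraries numbered 2.

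**Figure D1:**
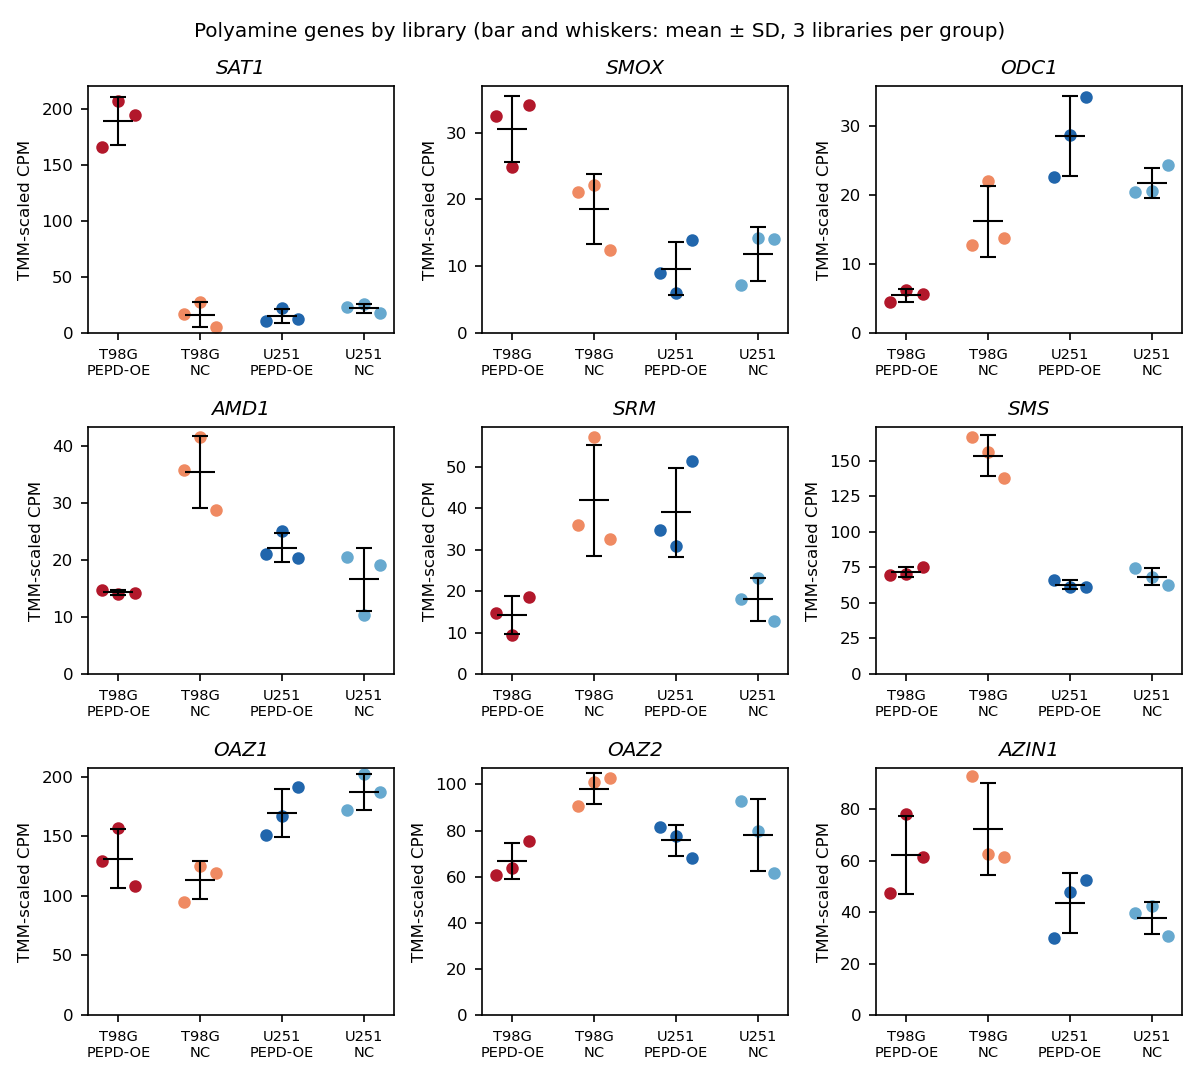
TMM-scaled CPM of 9 polyamine genes in the 12 libraries; points are libraries, and bars with whiskers are the mean and SD of 3 libraries per group. SAT1 lies between 166 and 207 CPM in T98G PEPD-OE and between 5.02 and 27.3 CPM in the other 9 libraries, while ODC1, AMD1, SRM and SMS lie lower in T98G PEPD-OE than in T98G NC.

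SAT1 also changed place among the members. Per kb of annotated exon, the mean level of SAT1 in T98G PEPD-OE was 75.8 CPM, ahead of OAZ1 at 38.3 and SMS at 33.2 CPM per kb. In T98G NC the order began with SMS at 71.1, OAZ1 at 32.9 and SRM at 22.1 CPM per kb, and SAT1 stood at 6.56 CPM per kb. In both U251 groups OAZ1 and then SMS were the highest per kb, with OAZ1 at 49.4 CPM per kb in U251 PEPD-OE and 54.5 in U251 NC. SAT1 was at 6.14 CPM per kb in U251 PEPD-OE and 8.88 in U251 NC. The lowest measured members per kb were AMD1 and ODC1 in T98G and AMD1 in U251.

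In T98G PEPD-OE, SAT1 held 30.8%, 32.8% and 33.2% of all counts under the 10 genes of a library, against 2.97%, 4.43% and 0.976% in T98G NC. In U251 the share was 2.47%, 4.86% and 2.54% in PEPD-OE against 4.88%, 5.29% and 4.17% in NC. Exact Clopper-Pearson 95% intervals of these shares are drawn in the plot of shares and cover counting error only. The sum over the 10 genes was nevertheless similar in T98G, at 586 ± 46.5 CPM in PEPD-OE and 566 ± 51 CPM in NC, since the 9 genes other than SAT1 summed to 397 ± 25.7 CPM in PEPD-OE and 550 ± 40 CPM in NC. In U251 the 10 genes summed to 466 ± 39.5 CPM in PEPD-OE and 462 ± 29 CPM in NC.

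**Figure D2:**
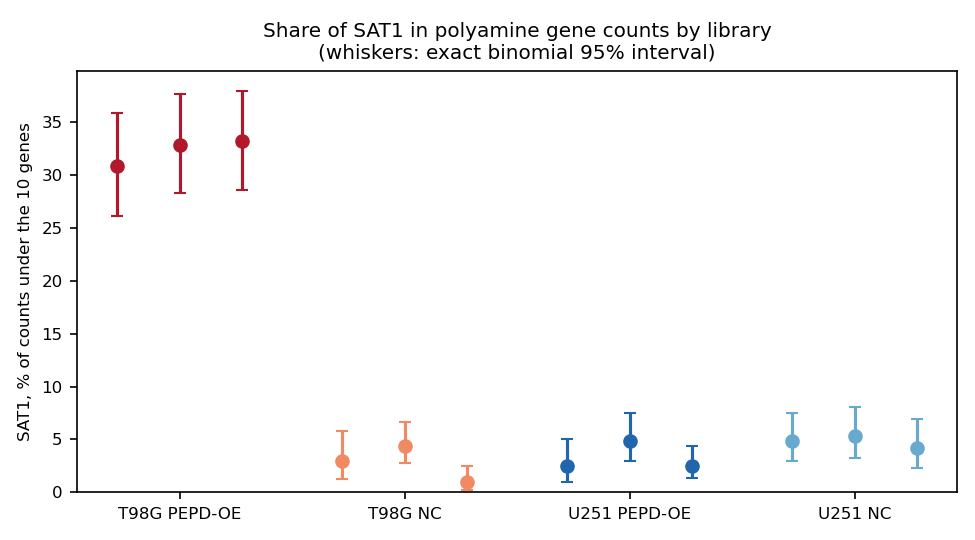
SAT1 as a percentage of the counts under the 10 polyamine genes, 1 point per library, with exact binomial 95% intervals as whiskers. The 3 T98G PEPD-OE libraries lie between 30.8% and 33.2%, and the other 9 between 0.976% and 5.29%.

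The 250 bases upstream of the SAT1 start in the RefSeq promoter table (build GRCh38.p14, chrX:23782923-23783172, plus strand) are shown because SAT1 is the member whose level stood apart.
SAT1: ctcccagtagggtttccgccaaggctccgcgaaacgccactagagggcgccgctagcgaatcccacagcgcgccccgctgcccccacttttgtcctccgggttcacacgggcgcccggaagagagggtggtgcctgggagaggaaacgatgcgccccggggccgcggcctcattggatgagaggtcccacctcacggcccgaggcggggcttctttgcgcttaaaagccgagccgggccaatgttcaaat
Matches were searched on both strands of such windows for CACGTG (an E-box), TGACNNNGC (the core of the antioxidant response element), TGATGNAA (the C/EBP-ATF response element) and TATAA. They occurred in 6.34%, 10.9%, 3.14% and 18.9% of 35116 promoter windows of the same length. None of these letters occurs in the SAT1 window.

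All 4 synthesis enzymes fell in T98G PEPD-OE, the group in which SAT1 was high. Of the 8 tested members other than SAT1, 5 were lower in T98G PEPD-OE (ODC1, AMD1, SRM, SMS and OAZ2), none was higher and 3 were not called, where 32.3% of the 8773 genes tested were called in that contrast, 14.7% lower and 17.7% higher. Their median log2 fold change was -0.83, beside 0 over all genes tested. The 4 enzymes summed to 106 ± 7.34 CPM in T98G PEPD-OE and 247 ± 32.2 CPM in T98G NC. In U251 the sum was 153 ± 12.4 CPM in PEPD-OE and 125 ± 7.94 CPM in NC.

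SMS, spermine synthase (chrX:21940573-21994835, plus strand), had 47, 45 and 53 counts in T98G PEPD-OE against 79, 120 and 110 in T98G NC. Its level was 71.7 ± 3.30 CPM in PEPD-OE and 154 ± 14.5 CPM in NC (n = 3 each, log2 fold change -1.08, SE 0.17, edgeR adjusted p = 1.44e-08). The library values did not overlap, and the lowest NC library was 1.83-fold above the highest PEPD-OE library. In U251 SMS was 62.7 ± 3.13 CPM in PEPD-OE and 68.6 ± 5.94 CPM in NC and was not called (log2 fold change -0.14, SE 0.18). T98G NC therefore stood apart for SMS, and the other 3 groups lay between 60.9 and 75.5 CPM.

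SRM, spermidine synthase (chr1:11054584-11060024, minus strand), moved in opposite directions in the lines. It had 10, 6 and 13 counts in T98G PEPD-OE against 17, 44 and 26 in T98G NC, or 14.2 ± 4.61 CPM in PEPD-OE and 41.9 ± 13.3 CPM in NC (log2 fold change -1.56, SE 0.32, edgeR adjusted p = 2.09e-05). Without both T98G libraries numbered 2 it was -1.02 (adjusted p = 0.0457). In U251 it had 23, 26 and 48 counts in PEPD-OE against 15, 18 and 10 in NC, or 39.0 ± 10.8 CPM in PEPD-OE and 18.0 ± 5.19 CPM in NC (log2 fold change 1.13, SE 0.28, edgeR adjusted p = 0.00344). Neither pair of groups overlapped. The U251 call was lost without U251 PEPD-OE replicate 3 (adjusted p = 0.0929) and without U251 NC replicate 3 (adjusted p = 0.0583). The difference between the lines was called (T98G change minus U251 change -2.69, SE 0.42, edgeR adjusted p = 6.05e-08).

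AMD1, S-adenosylmethionine decarboxylase (chr6:110874770-110895713, plus strand), had 10, 9 and 10 counts in T98G PEPD-OE against 17, 32 and 23 in T98G NC. Its level was 14.4 ± 0.395 CPM in PEPD-OE and 35.4 ± 6.37 CPM in NC (log2 fold change -1.29, SE 0.33, edgeR adjusted p = 7.72e-04), without overlap. In U251 AMD1 was 22.2 ± 2.56 CPM in PEPD-OE and 16.7 ± 5.54 CPM in NC, values that overlapped, and it was not called (log2 fold change 0.40, SE 0.32).

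ODC1, ornithine decarboxylase (chr2:10439968-10448504, minus strand), rested on fewer counts in T98G than any other tested member: 3, 4 and 4 in T98G PEPD-OE against 6, 17 and 11 in T98G NC. The level was 5.46 ± 0.922 CPM in PEPD-OE and 16.2 ± 5.15 CPM in NC (log2 fold change -1.58, SE 0.48, edgeR adjusted p = 0.00558). The call was lost without T98G NC replicate 2 (adjusted p = 0.0828) and without both T98G libraries numbered 2 (adjusted p = 0.109). In U251 ODC1 had 15, 24 and 32 counts in PEPD-OE against 17, 16 and 19 in NC and was not called (log2 fold change 0.41, SE 0.29). Its highest group was thus U251 PEPD-OE at 28.5 ± 5.79 CPM, beside 21.8 ± 2.19 CPM in U251 NC.

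Upstream runs of 3 synthesis enzymes that fell together in T98G are shown for the motifs they hold, in capitals, with exonic bases of GENCODE release 29 left out. ODC1 is shown at the second of its 2 RefSeq starts (chr2:10448013-10448120, minus strand, intronic), SRM at its single start (chr1:11060025-11060268, minus strand) and AMD1 at the first of 3 (chr6:110874535-110874769, plus strand). Capitals mark CACGTG in ODC1 and SRM and TATAA in AMD1.
ODC1: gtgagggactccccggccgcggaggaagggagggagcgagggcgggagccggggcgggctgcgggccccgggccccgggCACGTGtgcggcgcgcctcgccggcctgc
SRM: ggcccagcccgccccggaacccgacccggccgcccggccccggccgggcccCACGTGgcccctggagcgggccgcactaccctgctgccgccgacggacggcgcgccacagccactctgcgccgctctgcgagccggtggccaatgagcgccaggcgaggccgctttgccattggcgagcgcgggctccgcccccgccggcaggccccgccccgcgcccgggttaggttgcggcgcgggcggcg
AMD1: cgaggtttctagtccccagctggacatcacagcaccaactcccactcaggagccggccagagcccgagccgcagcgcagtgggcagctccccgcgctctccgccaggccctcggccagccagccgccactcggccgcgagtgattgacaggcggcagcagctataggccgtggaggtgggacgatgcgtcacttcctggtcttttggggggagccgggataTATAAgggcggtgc
The E-box match began 29 bases upstream of that ODC1 start and 199 bases upstream of the SRM start, and TATAA began 29 bases upstream of the AMD1 start, with no overlap between motifs. TATAA also lay 32 bases upstream of the first ODC1 start, within bases that GENCODE release 29 counts as exon. No other member window with a RefSeq entry held an E-box, and 7 of the 10 members had an entry. SMS fell as well and its window held none of the 4 motifs.

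Of the antizymes and their inhibitor, OAZ2 was the 1 gene of 3 called in T98G, a share near the 32.3% of all tested genes called there. OAZ2 (chr15:64687573-64703281, minus strand) had 41, 41 and 53 counts in T98G PEPD-OE against 43, 78 and 82 in T98G NC. Its level was 66.7 ± 7.81 CPM in PEPD-OE and 98.3 ± 6.61 CPM in NC, without overlap (log2 fold change -0.57, SE 0.18, edgeR adjusted p = 0.00952). That call missed the threshold when T98G PEPD-OE replicate 1 was left out (adjusted p = 0.0618) and without both T98G libraries numbered 2 (adjusted p = 0.0903). OAZ1 (chr19:2269509-2273490, plus strand) was 131 ± 24.7 CPM in T98G PEPD-OE and 113 ± 15.8 CPM in T98G NC and was not called (log2 fold change 0.19, SE 0.16). Over each T98G group OAZ1 held 264 counts in PEPD-OE and 236 in NC, and its partner JSRP1 held 283 in PEPD-OE and 282 in NC. AZIN1 (chr8:102826357-102893864, minus strand) was 62.2 ± 15.3 CPM in T98G PEPD-OE and 72.2 ± 17.9 CPM in T98G NC, with overlapping libraries (log2 fold change -0.17, SE 0.21). In U251, where 8.55% of all tested genes were called, none of the 3 was, with log2 fold changes between -0.13 and 0.24.

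Of the oxidases, SMOX (chr20:4120980-4187747, plus strand) had 22, 16 and 24 counts in T98G PEPD-OE against 10, 17 and 10 in T98G NC. Its 30.6 ± 4.94 CPM in PEPD-OE and 18.6 ± 5.25 CPM in NC did not overlap but missed the threshold (log2 fold change 0.75, SE 0.33, edgeR adjusted p = 0.0712). In U251 SMOX had 6, 5 and 13 counts in PEPD-OE against 6, 11 and 11 in NC (log2 fold change -0.25, SE 0.42). PAOX (chr10:133379234-133391694, plus strand) had 1 count in the whole series, in T98G NC replicate 2, and was not tested. Its 0 counts elsewhere allow up to 3 counts per library. A change of PAOX, the acetylpolyamine oxidase that acts on SAT1 products, could not be measured from these counts.

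**Figure D3:**
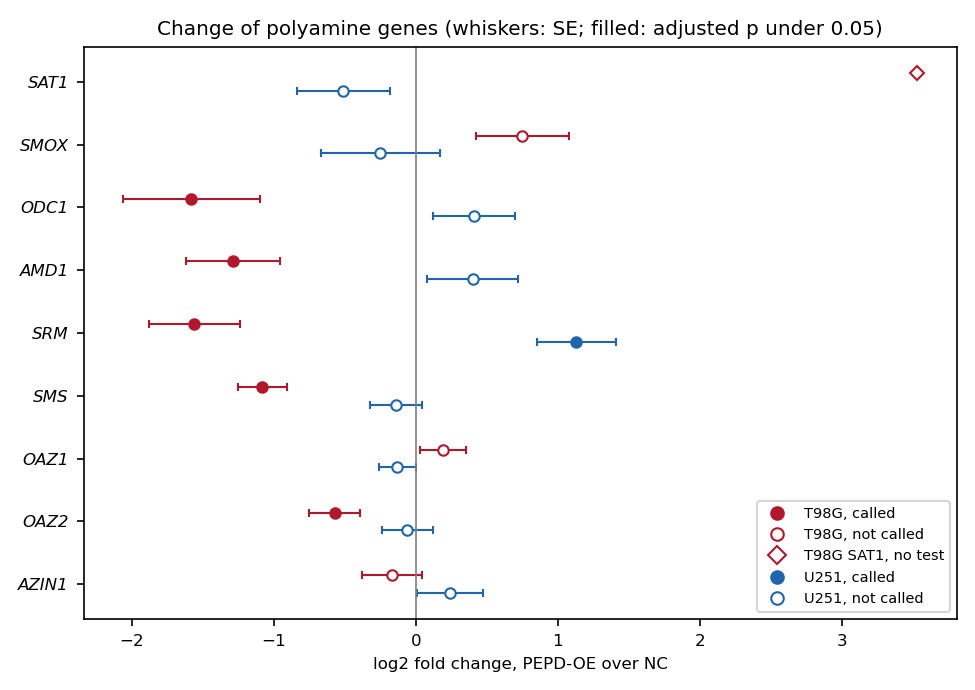
Log2 fold change of PEPD-OE over NC for 9 polyamine genes in T98G (red) and U251 (blue), with SE whiskers; filled symbols have an adjusted p under 0.05, and the diamond for SAT1 in T98G carries no test. In T98G, ODC1, AMD1, SRM, SMS and OAZ2 lie left of 0, and in U251 SRM alone is filled, at 1.13.

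Counted by overlap of library values, 6 of the 8 tested members other than SAT1 did not overlap between PEPD-OE and NC in T98G (SMS, ODC1, SRM, AMD1, OAZ2 and SMOX), where 43.5% of all tested genes did not. In U251, 1 of 9 members was called, SRM, and it was also the 1 member without overlap. There 8.55% of all tested genes were called (4.13% higher and 4.42% lower) and 22.4% did not overlap. The median log2 fold change of the 8 members other than SAT1 was 0.09 in U251, beside 0.002 over all genes tested.

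The response differed between the lines for all 4 synthesis enzymes. The T98G change minus the U251 change was -1.99 (SE 0.56) for ODC1, -1.69 (SE 0.46) for AMD1 and -0.95 (SE 0.25) for SMS, with edgeR adjusted p-values of 0.00345, 0.00231 and 0.00146, beside the -2.69 of SRM. Thus 4 of 8 members were called lower and none higher, where 27.7% of all tested genes were called, 13.6% lower. The ODC1 difference missed the threshold without both T98G libraries numbered 2 (adjusted p = 0.0519). For OAZ2 the difference was -0.51 (SE 0.25, adjusted p = 0.123) and for SMOX 1.00 (SE 0.54, adjusted p = 0.164).

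Between the NC libraries of the lines, 5 of 8 members were called, a share not far from the 48.7% of all tested genes called in that contrast (24.4% higher and 24.3% lower). SMS, SRM, AMD1 and AZIN1 were higher in T98G NC than in U251 NC (log2 differences 1.15, 1.23, 1.07 and 0.89) and OAZ1 was lower (-0.70). SMS averaged 154 CPM in T98G NC and 68.6 CPM in U251 NC, and SRM 41.9 CPM in T98G NC and 18.0 CPM in U251 NC. For ODC1 the difference was -0.39 (SE 0.34) and for SMOX 0.62 (SE 0.39), neither called. For OAZ2 the difference was 0.34 (SE 0.17, adjusted p = 0.0912), called only without U251 NC replicate 1 (adjusted p = 0.0431). SAT1 differed by -0.45, without a test, a value that was -1.20 without T98G NC replicate 2 and 0.06 without T98G NC replicate 3. The contrasts with T98G NC share those 3 libraries, so the higher baseline and the T98G decreases of SMS, SRM and AMD1 are not independent.

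Outside the 10 members, 46 genes in 6 linked lists were examined, of which 28 were tested. In T98G, where 32.3% of all tested genes were called (17.7% higher and 14.7% lower), 7 of these were higher in PEPD-OE, 5 were lower and 16 were not called, with a median log2 fold change of 0, as over all genes. In U251, where 8.55% of all tested genes were called, 2 were higher, none was lower and 26 were not called. Of the 7 higher in T98G, AZIN2, SLC47A1, OAT and ALDH3A1 reached the filter level of 12.9 CPM only in the T98G PEPD-OE group, so they could enter the test only by being high there. Without these, 24 linked genes were tested in T98G, of which 3 were higher, 5 were lower and 16 were not called.

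Among the 4 paralogs of members, AZIN2, a second antizyme inhibitor, had 38, 33 and 36 counts in T98G PEPD-OE against 8, 8 and 4 in T98G NC. Its level was 53.0 ± 2.80 CPM in PEPD-OE and 10.8 ± 5.94 CPM in NC (log2 fold change 2.40, SE 0.34). In U251 AZIN2 had at most 7 counts in any library. SATL1, the other tested paralog, was not called in either line. SAT2, a paralog of SAT1, and OAZ3 were too low to test, SAT2 with 16 counts in T98G PEPD-OE and 10 in T98G NC over the group.

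Of 7 tested transport genes, 3 were higher, 3 were lower and 1 was not called in T98G, where 32.3% of all tested genes were called. Without SLC47A1, 2 were higher and 3 lower of 6. These 2 were GPC1 and SLC12A8, and SLC12A8 also passed the filter only because of T98G PEPD-OE. SLC3A2, the heavy chain of several amino acid exchangers and described as a polyamine exporter, had 29, 38 and 38 counts in T98G PEPD-OE against 121, 153 and 185 in T98G NC. That is 52.1 ± 8.35 CPM in PEPD-OE and 229 ± 28.4 CPM in NC (log2 fold change -2.12, SE 0.17, edgeR adjusted p = 4.72e-24). In U251 SLC3A2 rose, at 195 ± 20.3 CPM in PEPD-OE and 107 ± 5.45 CPM in NC (log2 fold change 0.87, SE 0.14, edgeR adjusted p = 8.61e-07). SLC3A2 thus moved in the same directions as SRM in both lines. CAV1, caveolin, a coat protein of the caveolae that have been linked to polyamine uptake, fell to 30.6 ± 4.93 CPM in T98G PEPD-OE, against 115 ± 12.9 CPM in T98G NC (log2 fold change -1.92, SE 0.21). SLC7A1, an arginine importer, was lower in T98G (log2 fold change -0.94, SE 0.30, edgeR adjusted p = 0.0102), a call lost with DESeq2 (adjusted p = 0.0642) and without T98G NC replicate 3 (adjusted p = 0.0659).

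GPC1, a heparan sulfate proteoglycan described as a carrier of polyamines into cells, rose in T98G to 118 ± 6.27 CPM in PEPD-OE, against 57.7 ± 7.48 CPM in NC (log2 fold change 1.02, SE 0.18). SLC12A8, a member of a cation-chloride cotransporter family, was 38.5 ± 5.11 CPM in T98G PEPD-OE and 13.1 ± 5.07 CPM in T98G NC (log2 fold change 1.63, SE 0.36). That change is a description, because SLC12A8 entered the test through the group where it is high. SLC47A1 (opposite AC025627.1), an exporter of organic cations, had 17, 16 and 21 counts in T98G PEPD-OE against 0, 4 and 4 in T98G NC (log2 fold change 2.72, SE 0.50). In U251, SLC3A2 was the 1 transport gene called of 7 tested, where 8.55% of all tested genes were called. SLC7A1 (log2 fold change 0.86, edgeR adjusted p = 0.0739) was called there only without U251 NC replicate 1 (adjusted p = 0.0152).

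Of the 5 tested genes of arginine and ornithine supply, none of the 4 other than OAT was called in T98G, where 32.3% of all tested genes were. OAT, which interconverts ornithine and glutamate semialdehyde, had 11, 17 and 16 counts in T98G PEPD-OE against 6, 8 and 7 in T98G NC. Its level was 21.9 ± 5.17 CPM in PEPD-OE and 10.6 ± 1.95 CPM in NC, a log2 fold change of 1.07 that is given as a description because the gene entered the test through the group where it is high. ARG2 (opposite VTI1B), an arginase, had a log2 fold change of -0.01 in T98G and 0.02 in U251. Among 7 tested genes of S-adenosylmethionine supply and methionine salvage, MTAP (opposite AL359922.2), which clears the methylthioadenosine left by SRM and SMS, was the 1 called gene in each line, where 32.3% of all tested genes were called in T98G and 8.55% in U251. It was 32.6 ± 1.43 CPM in T98G PEPD-OE and 50.7 ± 11.8 CPM in T98G NC (log2 fold change -0.65, SE 0.24, edgeR adjusted p = 0.0288), a call lost in 7 alternatives (adjusted p up to 0.305 without T98G NC replicate 3). In U251 it was 109 ± 20.3 CPM in PEPD-OE and 62.4 ± 1.72 CPM in NC (log2 fold change 0.81, SE 0.17, edgeR adjusted p = 3.14e-04).

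Downstream of spermidine, EIF5A (opposite GPS2), the translation factor that carries the spermidine-derived residue hypusine, was 122 ± 22.4 CPM in T98G PEPD-OE and 202 ± 19.1 CPM in T98G NC (log2 fold change -0.72, SE 0.15, edgeR adjusted p = 2.65e-05). In U251 its log2 fold change was 0.05 (SE 0.14). DHPS (opposite WDR83), which starts hypusine formation, was not called in either line. EIF5A, ODC1 and AMD1 have processed pseudogenes, and the treatment of reads that fit several places is not given in the sources used here.

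Polyamine oxidation releases aldehydes, and of 5 tested aldehyde dehydrogenases ALDH3A2 and ALDH3A1 were higher in T98G PEPD-OE. Without ALDH3A1, which could only be called higher, 1 of 4 was called, where 17.7% of all tested genes were called higher. ALDH3A2 had 90, 71 and 90 counts in T98G PEPD-OE against 20, 29 and 29 in T98G NC, or 124 ± 11.8 CPM in PEPD-OE and 38.8 ± 3.06 CPM in NC (log2 fold change 1.69, SE 0.20). ALDH3A1 (opposite AC005722.3) had 44, 40 and 57 counts in T98G PEPD-OE against 6, 9 and 11 in T98G NC (log2 fold change 2.44, SE 0.31). In U251 neither was called, and ALDH3A1 had at most 4 counts in a library.

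**Figure D4:**
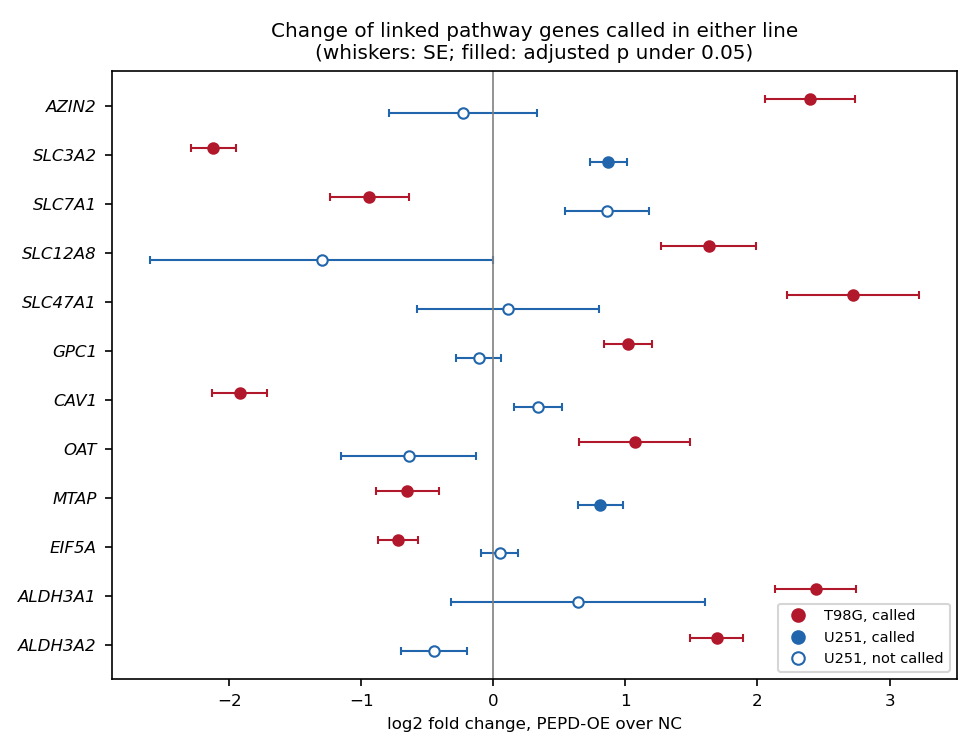
Log2 fold change of PEPD-OE over NC for the 12 linked genes called in either line, T98G in red and U251 in blue, with SE whiskers; filled symbols have an adjusted p under 0.05. SLC3A2 and MTAP are filled in both lines, left of 0 in T98G and right of 0 in U251. AZIN2, SLC47A1, OAT and ALDH3A1 reached the filter level by group mean only in T98G PEPD-OE, so in T98G they could only be called higher. SLC12A8 also passed the filter only because of the libraries of that group.

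The 5 tested genes whose pattern over the 12 libraries lay closest to that of SAT1 were HDAC9, AKR1C3, CACNA2D2, MPPE1 and CSPG4. Closeness was the root mean square difference of log2 CPM, each gene centred on its own mean, and it ran from 0.632 for HDAC9 to 0.693 for CSPG4, beside a median of 1.59 over all genes. HDAC9, a class IIa histone deacetylase, averaged 829 CPM in T98G PEPD-OE and 140 CPM in T98G NC, and 110 CPM in U251 PEPD-OE and 140 CPM in U251 NC. AKR1C3, an aldo-keto reductase with near-identical neighbours in its gene cluster, averaged 126 CPM in T98G PEPD-OE and 21.0 CPM in T98G NC, and 13.4 CPM in U251 PEPD-OE and 14.8 CPM in U251 NC. CACNA2D2 (opposite CYB561D2 and Z84492.1), MPPE1 (opposite GNAL and AP001269.4) and CSPG4 (opposite AC105020.4) had log2 fold changes of 3.17, 2.40 and 2.10 in T98G, and of -0.30, -0.45 and -0.43 in U251. They were chosen for likeness to SAT1, so these values describe the choice.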

How the data were processed

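Polyadenylated RNA of 12 libraries in 4 groups of 3 was sequenced with strand-marking (dUTP) libraries, per the labels' protocols. GRCh38 is the build, and FastQC, fastp, HISAT2, Subread and featureCounts the tools, in the submitters' processing notes. The sources used here give no roles, versions, annotation release or strand setting. Raw counts per gene are what the authors deposited, without normalization.

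These counts were filtered with filterByExpr (minimum count 10) and scaled by TMM. A robust quasi-likelihood model of edgeR 4.0.16 in R 4.3.3 took all 12 libraries with a mean for each group, which left 8 residual degrees of freedom. Benjamini-Hochberg adjustment of two-sided p-values ran over 8773 genes, and "called" means an adjusted p under 0.05. Each SE is the log2 fold change over the root of its F statistic. An exact test of 3 against 3 cannot go below 0.1, so no single value was tested apart. Exons came from GENCODE 29 and upstream windows from RefSeq (GRCh38.p14). Alternatives were other scalings, filters and fits, DESeq2 1.42.0 and libraries left out.

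The named genes are the 10 members, the linked genes called in either line, the 5 genes closest to SAT1, PEPD, marker genes and overlap partners. ARG2, DHPS, SATL1, SAT2, OAZ3, APIP and ENOPH1, and the pair BEST1 and FTH1, were named after their values were seen. The members and lists were chosen with earlier results of these data known. The code of the fit was run on counts simulated under its own model, which cannot test whether that model holds for these data.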

Additional observations from a re-analysis of the deposited data

Results flagged for a closer look

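For 16 of the 36 genes tested in the members and linked lists, SAT1 apart, the effect of PEPD-OE over NC differed between the lines by edgeR's interaction test (adjusted p under 0.05). Without AZIN2, SLC47A1, OAT and ALDH3A1 it was 13 of 32, where 27.7% of all tested genes were called. Those left out reached the filter level of 12.9 CPM by group mean only in T98G PEPD-OE. SLC12A8, which also passed the filter only because of that group, stayed among the 32, and its difference was not called. Differences are the T98G change minus the U251 change on the log2 scale, given without an explanation.

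Among the synthesis enzymes the difference was -1.99 for ODC1, -1.69 for AMD1, -2.69 for SRM and -0.95 for SMS. Of the linked genes, the paralog AZIN2 differed by 2.63. The transport genes differed by -2.99 for SLC3A2, -1.79 for SLC7A1, 2.61 for SLC47A1, 1.13 for GPC1 and -2.26 for CAV1. OAT differed by 1.70, MTAP by -1.46, EIF5A by -0.78 and ALDH3A2 by 2.14. These 14 genes were also called in T98G, U251 or both. For AZIN2, SLC47A1 and OAT that call, in T98G, adds nothing, since they entered the test only through T98G PEPD-OE. The other 2, ENOPH1 (-1.65) and APIP (opposite PDHX, 1.82) of methionine salvage, were called in neither line alone and were named after their values were seen. The positive differences of AZIN2, SLC47A1 and OAT are given as a description, because these genes entered the test through the group where they are high. Without a filter the differences were again 2.61 for SLC47A1 and 1.70 for OAT, as they rest on the same counts. Neither was then called (edgeR adjusted p = 0.0526 for SLC47A1 and 0.0991 for OAT). SLC47A1 missed the threshold in 4 alternatives and OAT in 12 (adjusted p up to 0.102 and 0.176). Counts under SLC7A1 in U251 and under OAT in either line were few, at most 27 per library. Groups of 3 libraries were not screened for single outlying libraries.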

How the results depend on the processing

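Of 1723 values recomputed under 23 alternatives (12 of them leaving out 1 library each), 1663 were classed as unchanged. A tested value was unchanged if it kept its side of the threshold and, where called, its direction. An untested value had to keep its direction and move by less than the spread between replicates, a count of genes by at most 1.5 times. Values not called could change sign, as ALDH3A1 in U251 did (-0.85 to 1.49 with 1 library left out). DESeq2 gave no adjusted p for 9 values, which were left out. In T98G, 5 members were called, 4 or 5 with 1 library left out, and 3 (SMS, SRM and AMD1) with both T98G libraries numbered 2 left out, an alternative chosen after seeing the data. In U251 1 member was called, 0 or 1 with 1 library left out. In T98G NC against U251 NC 5 members were called, 5 or 6 with 1 library left out, and 3 of the 5 testable ones among genes without opposite-strand overlap. Over all genes, that restriction (4176 tested) called 1140 in T98G (650 higher, 490 lower), against 2837 in the full table, and 245 in U251, against 750. DESeq2 called 415 in U251. With 1 library left out the T98G count was 2350 to 3023 and the U251 count 440 to 742, with 440 without U251 PEPD-OE replicate 2, 449 without U251 NC replicate 1 and 442 without U251 NC replicate 3. The untested SAT1 difference between the NC groups, -0.45, was -1.20 without T98G NC replicate 2 and reversed to 0.06 without T98G NC replicate 3. Apart from fewer genes or libraries, the cause of these shifts was not tested.

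Deviations over all tested genes of same-numbered PEPD-OE and NC libraries correlated at -0.0417 to 0.0582, so the numbers were not treated as pairs, although both T98G libraries numbered 2 share the leukocyte and PECAM1 counts. With the replicate number as a block, 5 members were called in T98G and 1 in U251, of 2859 and 792 genes, and 4 members for the difference between lines and 5 between the NC groups. SAT1 in U251 was -0.52 with the block (adjusted p = 0.367).

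Few counts limit the precision: ODC1 had 3 to 4 per T98G PEPD-OE library, and 3 counts equalled up to 6.33 CPM. Whether depth or the strand of counting sets these numbers was not tested.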
